A study of Mus musculus with 6 samples.

Results

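The 2 genes described here are the cone opsins of the mouse retina, Opn1sw and Opn1mw, taken by name from a table of read counts for 701 genes in the peripheral ventrotemporal (VT) retina after optic nerve crush (ONC). They are 2 of those 701 genes, and their levels and the ratio of their counts were followed in every sample. RNA-seq was done on 3 samples from wild-type (WT) mice and 3 samples from Slc6a4-/- mutants, a constitutive knockout of the gene for the serotonin transporter SERT, all labelled C57BL/6 and 8 weeks (postnatal day 56) old. Every sample, WT included, came from an eye whose optic nerve had been crushed 24 hours (1 day) before, so an uninjured retina is not among the groups compared. Each sample was a pool of the VT retinae of 3 mice, and the spread given below is that between pools. The study obtained the WT mice (C57BL/6J) and the mutants as separate purchased stocks, so genotype and stock cannot be told apart. The study used mice of both sexes, and which sexes went into which pool is not given in the sources used here.

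Opn1sw encodes the short-wavelength opsin of mouse cones, which absorbs ultraviolet light, and Opn1mw encodes the middle-wavelength opsin, which absorbs green light. Most mouse cones make both opsins, and the balance depends on where the cone sits: short-wavelength opsin is high in ventral retina, and middle-wavelength opsin is high in dorsal retina. Thyroid hormone, acting through the receptor gene Thrb, is needed for Opn1mw and holds down Opn1sw. The homeobox factor Vax2 marks and patterns the ventral retina, and Tbx5 and the retinoic acid synthesizing enzyme gene Aldh1a1 mark the dorsal retina.

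Opn1sw (ENSMUSG00000058831) lies on the minus strand of chromosome 6 from 29376671 to 29388468, and Opn1mw (ENSMUSG00000031394) on the plus strand of chromosome X from 74127464 to 74150760, both in GRCm38 with GENCODE M21 gene models. The coding sequences of their main transcripts are 1038 and 1077 bases long without the stop codon. They were identical at 578 of 1028 aligned bases (56.2%), and the longest run of bases that both hold was 17. The stretches below are the most alike pair of windows as long as a read (75 bases) along that alignment, and are shown because they bear on whether a read can be told apart between the opsins. Capitals mark the 20 bases at which they differ. The Opn1sw window is spliced from exons 2 and 3 within chr6:29379442-29379746 on the minus strand, and the Opn1mw window from exons 3 and 4 within chrX:74138560-74139849 on the plus strand.
Opn1sw: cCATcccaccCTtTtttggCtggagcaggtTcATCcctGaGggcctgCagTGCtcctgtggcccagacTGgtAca
Opn1mw: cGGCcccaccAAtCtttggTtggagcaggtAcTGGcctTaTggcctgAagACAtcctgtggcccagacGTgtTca

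Another gene model touches the Opn1sw count. Exons of Calu, on the opposite strand, cover 397 of the 2557 exonic bases of Opn1sw (15.5%). The libraries were stranded, but whether the counting used the strand is not given in the sources used here, so reads of Calu cannot be told apart from reads of Opn1sw over those bases. No exon of another gene overlapped Opn1mw.

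The labels of the groups could be checked on the targeted gene. Slc6a4 had 1516, 1397 and 1548 reads in WT pools 1 to 3, and 0, 0 and 3 reads in Slc6a4-/- pools 1 to 3. Library totals, recovered from the deposited RPKM values, lay between 76.1 M and 93.7 M reads, and counts were divided by a factor per library (0.919 to 1.13) to give scaled counts. These totals are higher than the number of reads per sample that the study states for its paired-end sequencing, and the reason was not tested. All 701 genes had been selected by the authors at a p-value below 0.05 on the same 6 pools, so the presence of a gene in the table is not an independent sign of a difference.

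Opn1sw was lower on average in Slc6a4-/- VT retina, but the 6 samples did not divide by genotype. The deposited counts of Opn1sw were 5182, 16001 and 11677 in WT pools 1 to 3, which became scaled counts of 5637, 16805 and 12275. The counts in Slc6a4-/- pools 1 to 3 were 5198, 4226 and 6054, or scaled counts of 4593, 3896 and 6188. WT pools 2 and 3 stood above all others, whereas WT pool 1 lay below Slc6a4-/- pool 3 and close to Slc6a4-/- pool 1, so the groups overlapped. WT averaged 11572 ± 5617 scaled counts (SD, n = 3), against 4892 ± 1175 (SD, n = 3) for the mutants. On the scale of log2(scaled count + 1) the difference was -1.13 with an SE of 0.40 and a 95% confidence interval from -2.07 to -0.19, that is 2.19-fold lower in Slc6a4-/- (limma, adjusted p = 0.10). It did not pass an adjusted p of 0.05.

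Opn1sw spread widely among the WT pools, and was not alone in this. Its highest WT sample was 2.98 times its lowest, whereas the median of that quotient over 505 genes with a WT mean of at least 100 scaled counts was 1.18. Of these 505 genes, 32 (6.34%) spread more widely in WT. Among the Slc6a4-/- pools the highest Opn1sw value was 1.59 times the lowest, against a median of 1.28 over 522 genes, and 70 of these (13.4%) spread more widely. The authors' selection by p-value on these pools can favour genes that spread little within a genotype. These medians and shares thus describe the table, and not all genes of the retina. Without WT pool 1 the log2 difference was -1.58 and the adjusted p was 0.042 (limma), and 160 genes of the table (22.8%) then passed the same threshold.

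Opn1mw was higher on average in Slc6a4-/- VT retina, and its difference was smaller than that of Opn1sw in size. The deposited counts of Opn1mw were 2793, 2134 and 2673 in WT pools 1 to 3, or scaled counts of 3038, 2241 and 2810. In Slc6a4-/- pools 1 to 3 the counts were 3384, 4673 and 3249, or scaled counts of 2990, 4308 and 3321. Slc6a4-/- pool 2 was the highest and WT pool 2 the lowest, and the groups overlapped only because WT pool 1 lay just above Slc6a4-/- pool 1. WT averaged 2697 ± 411 scaled counts (SD, n = 3), against 3540 ± 686 (SD, n = 3) for the mutants. The log2 difference was 0.39 with an SE of 0.17 and a 95% confidence interval from -0.02 to 0.80, that is 1.31-fold higher in Slc6a4-/- (limma, adjusted p = 0.107). It did not pass the threshold either.

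Whether the Opn1mw values overlapped depended on the scaling, since WT pool 1 and Slc6a4-/- pool 1 were so close. Without scaling, with medians of ratios over the table, and with libraries set to equal Pde6c counts, all 3 Slc6a4-/- values of Opn1mw lay above all 3 WT values. With equal Pde6c counts the log2 difference of Opn1mw was 0.59 and passed (limma, adjusted p = 0.0249), as did 277 of the 701 genes (39.5%), 263 of them higher in Slc6a4-/-. A scaling shifts all genes of a library alike, and the median log2 difference of the table was 0.30 with the recovered totals, 0.26 with medians of ratios, 0.47 without scaling and 0.50 with equal Pde6c counts. With medians of ratios the log2 difference of Opn1mw was 0.34 and did not pass (limma, adjusted p = 0.0928). Relative to the table median, a distance that scaling leaves as it is, Opn1mw lay 0.09 higher and Opn1sw 1.43 lower on the log2 scale. Without Slc6a4-/- pool 2 the log2 difference of Opn1mw was 0.24.

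**Figure D1:**
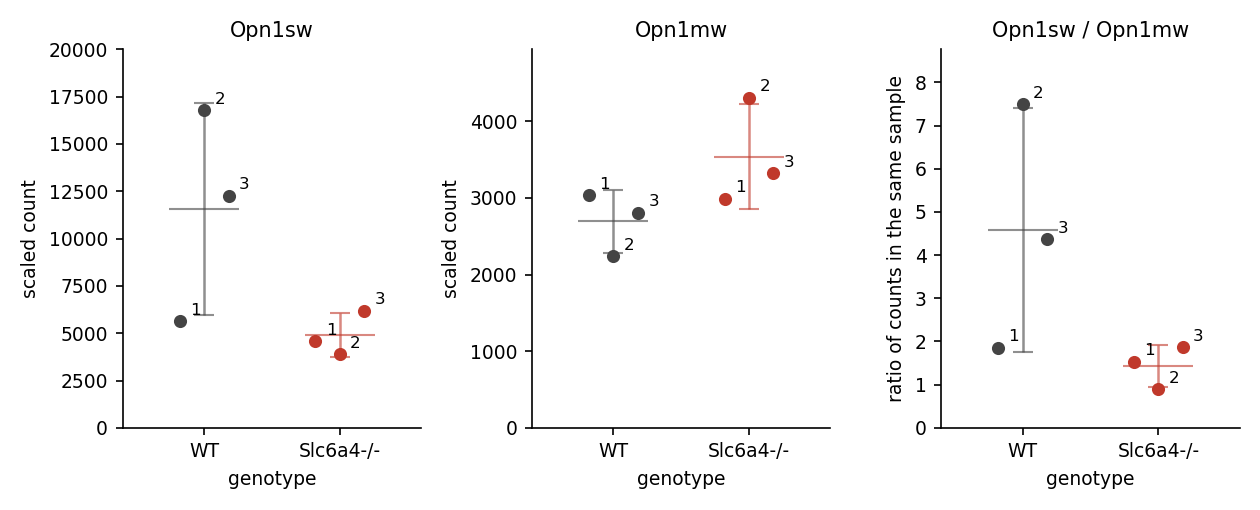
Scaled counts of Opn1sw and Opn1mw and the ratio of their counts (y axes, linear, from 0) in WT and Slc6a4-/- VT retina after ONC. Each point is a pool, numbered as in the text, and the long bar and whiskers are the mean and SD of 3 pools. WT pools 2 and 3 lie above every other sample for Opn1sw and for the ratio, and WT pool 1 lies among the Slc6a4-/- samples.

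Of the 2 opsins, 0 passed an adjusted p of 0.05 in limma, against 9 of the 701 genes of the table (1.28%). With limma's voom weights, 0 of the 2 opsins passed as well. At an unadjusted p of 0.05, 1 of the 2 passed (Opn1sw), against 331 genes (47.2%). The groups were separate for 0 of the 2 opsins, whereas they did not overlap for 424 genes (60.5%). With the recovered totals, both opsins were thus among the genes of this table whose pools crossed between the genotypes. Under the other scalings described above, the pools of Opn1mw did not cross, while those of Opn1sw still did.

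The ratio of the opsins was compared within each sample, where the library scaling cancels. There were 1.86, 7.50 and 4.37 Opn1sw reads for each Opn1mw read in WT pools 1 to 3, and 1.54, 0.904 and 1.86 in Slc6a4-/- pools 1 to 3. The ratio of Slc6a4-/- pool 3 was the same as that of WT pool 1 to 3 digits, and slightly higher before rounding. On the log2 scale the ratio averaged 1.98 ± 1.02 (SD, n = 3) over the WT pools, against 0.46 ± 0.54 (SD, n = 3) over the mutant pools. The difference of -1.52, or a 2.86-fold lower ratio in Slc6a4-/-, did not separate the genotypes (exact two-sided permutation test, p = 0.2, where 3 samples against 3 cannot give less than 0.1). The ratio was lower than that of WT pools 2 and 3 in 3 of 3 Slc6a4-/- samples, and lower than that of WT pool 1 in 2 of 3.

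Expressed as a share, Opn1sw took 65.0%, 88.2% and 81.4% of the summed opsin counts in WT pools 1 to 3, and 60.6%, 47.5% and 65.1% in Slc6a4-/- pools 1 to 3. The 95% Wilson intervals ran from 63.9% to 66.0% in WT pool 1, from 87.8% to 88.7% in WT pool 2, and from 46.5% to 48.5% in Slc6a4-/- pool 2. They cover counting error only, and were much narrower than the distances between pools of 1 genotype. WT pool 1 and Slc6a4-/- pool 3 could not be told apart by this share. Slc6a4-/- pool 2 was the only one of the 6 with fewer reads of Opn1sw than of Opn1mw.

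**Figure D2:**
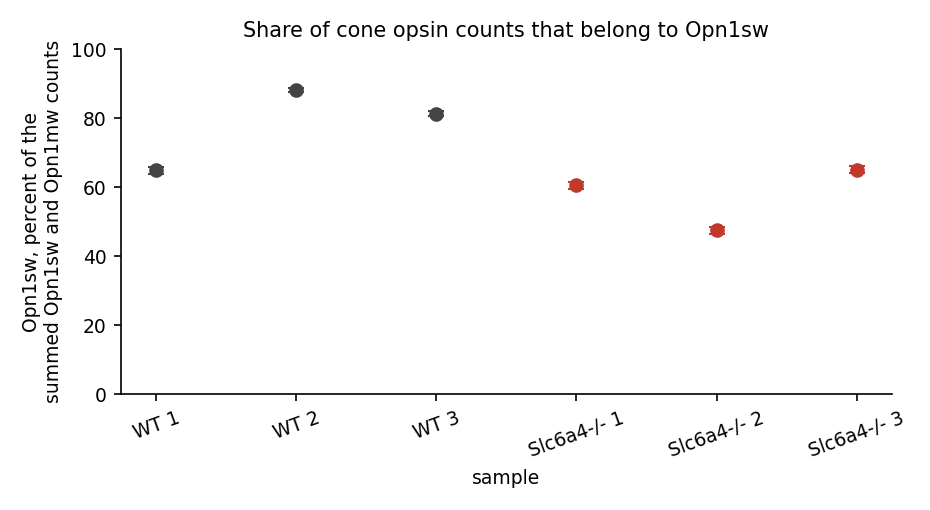
Percent of the summed Opn1sw and Opn1mw counts that belong to Opn1sw (y axis) in each of the 6 samples (x axis). Points are shares, bars their 95% Wilson intervals, WT in grey and Slc6a4-/- in red. The shares run from 47.5% to 88.2%, and WT pool 1 (65.0%) and Slc6a4-/- pool 3 (65.1%) are at the same level.

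Which opsin was the more abundant transcript depended on the length by which the counts were divided. The deposited RPKM, the authors' mean of the higher group, was 54.97 for Opn1sw in WT and 34.37 for Opn1mw in Slc6a4-/-. With the counts and the recovered totals these values correspond to lengths of 2543 bases for Opn1sw and 1244 bases for Opn1mw. Per base of those lengths, the level of Opn1sw relative to Opn1mw was 0.908, 3.67 and 2.14 in WT pools 1 to 3, and 0.751, 0.442 and 0.912 in Slc6a4-/- pools 1 to 3. Opn1sw was then the higher of the opsins in WT pools 2 and 3 only. Per base of coding length the same relative levels were 1.93, 7.78 and 4.53 in WT, and 1.59, 0.938 and 1.93 in Slc6a4-/-, and Opn1sw was the higher in every sample but Slc6a4-/- pool 2. The counts are per gene, whereas the coding length leaves out untranslated bases. The main transcripts measured 2410 bases for Opn1sw and 1227 for Opn1mw, so division by coding length favours Opn1sw. The order of the samples is the same with either length.

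Cone content can be read only in part from this table, since in bulk retina fewer cells of a type and less RNA per cell cannot be told apart. Of 17 genes listed for cone phototransduction, the table held Opn1sw, Opn1mw and Pde6c, and the other 14 were not analysed here. Pde6c encodes the catalytic subunit of the cone phosphodiesterase, the enzyme that an excited cone opsin activates through transducin. It had 3929, 3902 and 3827 scaled counts in WT pools 1 to 3, and 3050, 3648 and 3474 in Slc6a4-/- pools 1 to 3. All 3 Slc6a4-/- samples were below the WT samples, with a log2 difference of -0.20 (SE 0.09) that did not pass (limma, adjusted p = 0.108). The WT samples lay within 1.03 times of each other for Pde6c, whereas they spread 2.98 times for Opn1sw.

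Taken per read of Pde6c, Opn1sw had 1.43, 4.31 and 3.21 reads in WT pools 1 to 3, and 1.51, 1.07 and 1.78 in Slc6a4-/- pools 1 to 3 (exact two-sided permutation test, p = 0.3). WT pool 1 was again within the range of the mutants. Opn1mw had 0.773, 0.574 and 0.734 reads per read of Pde6c in WT, and 0.980, 1.18 and 0.956 in Slc6a4-/-. The groups thus did not overlap for Opn1mw (p = 0.1 in the same exact permutation test, the smallest it can give). Pde6c, itself selected on these pools, was lower in every Slc6a4-/- pool, so dividing by it raised all genes there relative to WT. The median log2 difference of the table was 0.50 with equal Pde6c counts, against 0.30 with the recovered totals. With equal Pde6c counts, 399 genes of the table did not overlap, so this separation was not particular to Opn1mw. Both opsins summed to 14269 ± 5233 (SD, n = 3) scaled counts over the WT pools, against 8432 ± 983 (SD, n = 3) over the mutant pools, and the sums overlapped between the genotypes (exact permutation test, p = 0.2).

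Of 14 rod phototransduction genes, Gngt1, the gamma subunit of rod transducin, was in the table. It had 19648, 18917 and 18980 scaled counts in WT pools 1 to 3 and 19726, 31694 and 21413 in Slc6a4-/- pools 1 to 3. Slc6a4-/- pool 2, which had the most Opn1mw, stood apart from the other 5 samples. The log2 difference was 0.31 (SE 0.18) and did not pass (limma, adjusted p = 0.15).

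The genes known to act on opsin choice or cone fate were followed as a list of 20, of which the table held 6. None of the 6 passed the adjusted threshold in limma, 3 of them did at an unadjusted p of 0.05 (Onecut2, Slco1c1 and Bmp4), and the groups did not overlap for 3 (Thra, Onecut2 and Bmp4). Over all 701 genes these shares were 47.2% and 60.5%. The median log2 difference of the 6 was 0.59, beside 0.30 over all 701 genes. Thrb itself was not analysed here.

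Among the thyroid hormone genes of that list, Slco1c1, which encodes a transporter that brings thyroid hormone into cells, had 314, 170 and 177 scaled counts in WT pools 1 to 3 and 289, 429 and 325 in Slc6a4-/- pools 1 to 3. WT pool 1 was again the WT sample nearest to the mutants, and the log2 difference was 0.69 (SE 0.28, limma adjusted p = 0.106). Dio3, the deiodinase that inactivates thyroid hormone, had 112, 76.7 and 36.8 in WT and 133, 136 and 102 in Slc6a4-/-, a log2 difference of 0.83 (SE 0.41, limma adjusted p = 0.115). Thra, the alpha receptor of thyroid hormone, had a log2 difference of -0.13 (SE 0.08, limma adjusted p = 0.153). None of these differences passed the threshold.

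Onecut2, a transcription factor of early cone and horizontal cell precursors, had 943, 985 and 859 scaled counts in WT pools 1 to 3 and 794, 709 and 714 in Slc6a4-/- pools 1 to 3, with no overlap. Its log2 difference was -0.33 (SE 0.10, limma adjusted p = 0.10). Nr2f2, an orphan nuclear receptor of dorsal retina, and Bmp4, a dorsal signal of the developing eye, belong also to the dorsal genes and are described with them.

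The genes that mark ventral and dorsal retina were read beside the opsins. Of 6 ventral genes listed, Vax2 was in the table, and of 8 dorsal genes Tbx5, Aldh1a1, Efnb2, Bmp4 and Nr2f2 were. Vax2 had 283, 663 and 492 scaled counts in WT pools 1 to 3 and 277, 190 and 335 in Slc6a4-/- pools 1 to 3. From the highest, its order was WT 2, WT 3, Slc6a4-/- 3, WT 1, Slc6a4-/- 1 and Slc6a4-/- 2, and the order of Opn1sw and of the opsin ratio was the same. Over the 6 samples Opn1sw varied 4.31-fold and Vax2 3.49-fold. The quotient of their counts varied 1.53-fold, from 16.6 in Slc6a4-/- pool 1 to 25.4 in WT pool 2. The log2 difference of Vax2 was -0.79 (SE 0.35) and did not pass (limma, adjusted p = 0.107).

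The dorsal genes ran the other way across the samples. Aldh1a1 had 3115, 1713 and 1786 scaled counts in WT pools 1 to 3 and 3402, 5345 and 2786 in Slc6a4-/- pools 1 to 3. Its order was the exact reverse of that of Opn1sw, in 15 of 15 pairs of samples. Tbx5, the dorsal T-box factor, had 34.8, 3.15 and 12.6 scaled counts in WT and 32.7, 96.8 and 25.6 in Slc6a4-/-. It ran opposite to Opn1sw in 14 of 15 pairs of samples, as did Efnb2, a dorsal ephrin, and Nr2f2. Efnb2 had 779, 349 and 500.4 scaled counts in WT and 581, 1247 and 567 in Slc6a4-/-, and Nr2f2 had 562, 222 and 350.1 in WT and 505, 632 and 449 in Slc6a4-/-. WT pool 1 exceeded 2 of the 3 mutant pools for both. Bmp4, with 80.5, 75.6 and 53.6 in WT and 120.2, 105 and 92.0 in Slc6a4-/-, ran opposite to Opn1sw in 12 of 15 pairs. All 5 dorsal genes had higher means in Slc6a4-/-, none passed the adjusted threshold in limma (adjusted p from 0.102 to 0.229), 2 had an unadjusted p below 0.05 (Aldh1a1 and Bmp4), and the groups did not overlap for Bmp4 alone. Over all 701 genes, 397 (56.6%) had higher means in Slc6a4-/- on the log2 scale, 47.2% had an unadjusted p below 0.05 and 60.5% did not overlap. The median log2 difference of the 5 was 0.60, beside 0.30 for all genes of the table.

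Opn1mw ran opposite to Opn1sw in 12 of 15 pairs of samples, with its highest value in Slc6a4-/- pool 2, where Aldh1a1 and Tbx5 were also highest, and its lowest in WT pool 2, where both were lowest. Of the other 700 genes, 7 (1.0%) had the order of Opn1sw in all 6 samples and 9 (1.29%) had its exact reverse. Those with the same order were Vax2, H2ac15, Hist1h4m, Nrxn3, Scml4, Sipa1l3 and Zfp385a. Those with the reverse order were Aldh1a1, Acyp2, Alpk2, Bambi, Ctsd, Il33, Necab2, Nxn and Wdr72. Of all these, only Vax2 and Aldh1a1 are in the ventral and dorsal lists, so the orders are not particular to dorsoventral genes. With the other 3 scalings, Vax2 followed Opn1sw in 14 or 15 of 15 pairs, Aldh1a1 ran opposite in 13 to 15, Tbx5 in 14 or 15, and Opn1mw in 13. All these genes share the libraries, and their dissected pieces, so the orders are descriptions. Whether the pieces differed in their dorsal and ventral share was not tested.

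**Figure D3:**
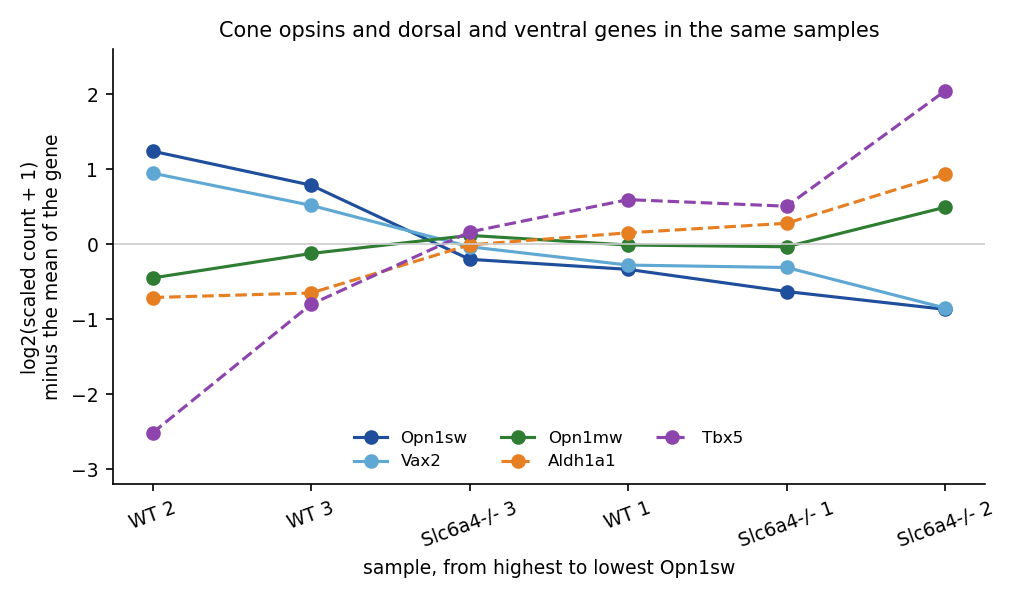
Levels of Opn1sw, Vax2, Opn1mw, Aldh1a1 and Tbx5 (y axis, log2(scaled count + 1) minus the mean of each gene over the 6 samples) with the samples ordered from highest to lowest Opn1sw (x axis). Vax2 falls along the same order as Opn1sw from WT pool 2 to Slc6a4-/- pool 2, Aldh1a1 follows the reverse order, and WT pool 1 lies between Slc6a4-/- pools 3 and 1.

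**Figure D4:**
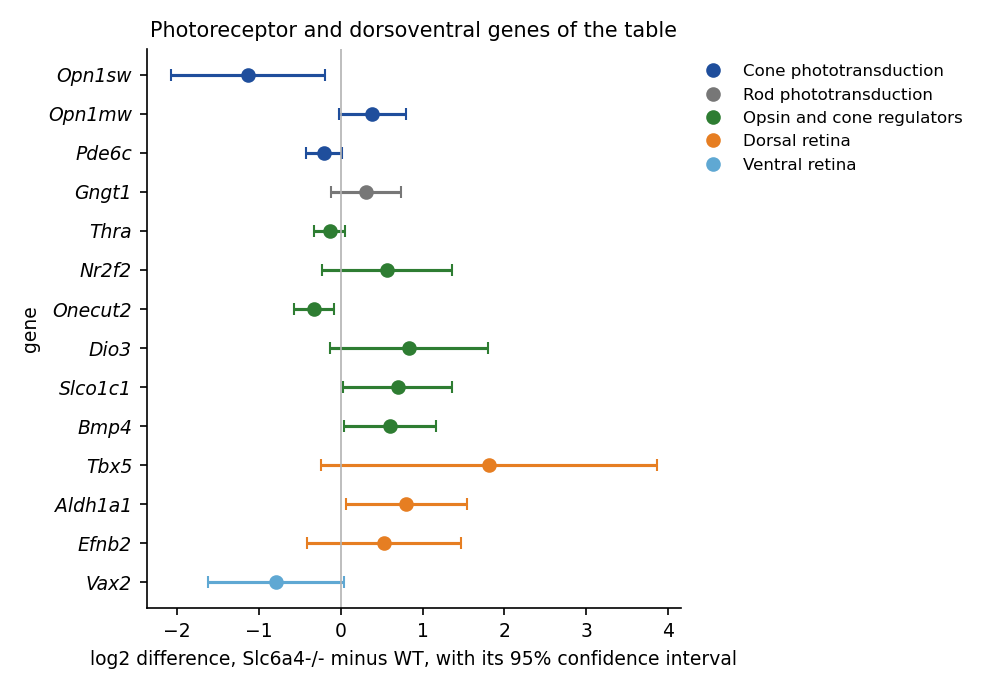
Difference between Slc6a4-/- and WT (x axis, log2 scale, point) with its 95% confidence interval from limma (bar) for the genes of the photoreceptor, regulator, dorsal and ventral lists that the table holds (y axis). Nr2f2 and Bmp4 also belong to the dorsal list and are drawn once, with the regulators. Opn1sw (-1.13) and Vax2 (-0.79) lie to the left and the dorsal genes to the right, and none passed the adjusted threshold.

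The genes most like each opsin were taken as those with the smallest root mean square difference in centred log2(scaled count + 1) over the 6 samples, among 513 other genes with a mean of at least 100 scaled counts. For Opn1sw these were Vax2 (0.221 on the log2 scale), the histone H4 gene Hist1h4m (0.412) and the phosphodiesterase gene Pde11a (0.442), against a median of 0.879 over all 513. Vax2 was thus nearer to Opn1sw than any other gene compared. For Opn1mw they were Tac1 (0.0769), the cell cycle inhibitor gene Cdkn2c (0.0803) and the sulfotransferase gene Ust (0.0907), against a median of 0.356. Tac1 encodes the precursor of substance P and is made by amacrine cells of the retina. The study names it among genes of susceptible ganglion cell subtypes and reports it as increased in Slc6a4-/- VT retina. Tac1 had 386, 283 and 347 scaled counts in WT pools 1 to 3 and 383, 589 and 478 in Slc6a4-/- pools 1 to 3. Like Opn1mw it was highest in Slc6a4-/- pool 2 and lowest in WT pool 2.

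Genes of the table within 1 megabase of an opsin were compared with it, since neighbours share a chromosome region. Next to Opn1sw lay Ccdc136, 7841 bases away, with 2320, 3660 and 3020 scaled counts in WT pools 1 to 3 and 2336, 2432 and 2713 in Slc6a4-/- pools 1 to 3. It too was highest in WT pools 2 and 3, and its log2 difference of -0.24 did not pass (limma, adjusted p = 0.204). Around Opn1mw lay Xlr3b, Flna, Dnase1l1 and Naa10. The nearest, Flna, which encodes the actin crosslinker filamin A, had 5833, 5149 and 4447 in WT and 6722, 6879 and 5847 in Slc6a4-/-, without overlap. Dnase1l1 and Naa10 were also higher in Slc6a4-/- without overlap, Xlr3b was not, and none of the 4 passed (limma, adjusted p from 0.10 to 0.148). In the whole table, 60.5% of the genes did not overlap and 56.6% had higher means in Slc6a4-/-.

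Because Opn1mw is on the X chromosome, the genes listed for X inactivation and escape from it were read beside it. The table held 3 of 6, and none of the 4 Y chromosome genes was analysed here. Kdm6a, which escapes X inactivation, had 2540, 3514 and 4322 scaled counts in WT pools 1 to 3 and 2581, 2549 and 3089 in Slc6a4-/- pools 1 to 3. Eif2s3x, another escape gene, had 5149, 6338 and 7810 in WT and 5014, 5697 and 6149 in Slc6a4-/-. Gm26992, the third of these genes in the table, had 2.18, 22.1 and 48.4 in WT and 0, 0.922 and 16.4 in Slc6a4-/-, and its WT values spread 22.2-fold. All 3 genes were highest in WT pools 3 and 2, then in Slc6a4-/- pool 3, which are also the 3 samples with the most Opn1sw. Gm26992 followed the order of Opn1sw in 13 of 15 pairs of samples, and Kdm6a and Eif2s3x each in 12. None of the 3 passed in limma (adjusted p from 0.164 to 0.315). The part of the sex of the pooled mice in the opsin values was not tested.

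Markers of other cell types also differed between the pools. For the pigment epithelium, which lies against the photoreceptors, 5 of 11 listed genes were in the table (Lrat, Pmel, Dct, Tyrp1 and Mlana), and their summed scaled counts ran from 931 to 2218 in WT and from 1997 to 3750 in Slc6a4-/-. All 5 had higher means in Slc6a4-/-, 1 did so without overlap (Pmel), and none passed in limma. Pmel had 426, 259 and 147 in WT pools 1 to 3 and 592, 626 and 442 in Slc6a4-/- pools 1 to 3, so that WT pool 1 was once more the WT sample closest to the mutants. Rpe65 and the 5 other pigment epithelium genes listed were not analysed here. For myeloid cells 5 of 9 genes were in the table (Aif1, Lyz2, Ccr2, Cybb and Mpeg1), with sums from 166 to 336 in WT and from 348 to 485 in Slc6a4-/-, higher means in Slc6a4-/- for all 5, no overlap for 3 and none that passed. Over all 701 genes, 56.6% had higher means in Slc6a4-/- and 60.5% did not overlap. The part of these cells in the opsin differences was not tested.

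Of the markers of neurons and glia, Gfap was the only 1 of 6 genes listed for Muller glia that the table held. It had 2128, 1572 and 1792 scaled counts in WT pools 1 to 3 and 1376, 1539 and 1257 in Slc6a4-/- pools 1 to 3, without overlap. Which cells its reads came from was not tested. The On bipolar genes Grm6 and Nyx summed to between 2575 and 3183 in WT and to between 2344 and 2750 in Slc6a4-/-. The ganglion cell gene Nefl lay between 10870 and 12792 in WT and between 9018 and 11650 in Slc6a4-/-. None of these 4 genes passed the adjusted threshold in limma, and they spread far less among the WT pools than Opn1sw did.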

How the data were processed

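The authors pooled 3 VT retinae per sample, made stranded total RNA libraries with reduced ribosomal RNA, aligned paired 75-base reads to GRCm38 and counted them per gene in CLC Genomics Workbench. The deposited table holds raw counts, written with commas as digit separators that were removed here, for 701 genes that the authors kept with at least 10 reads in 2 samples of either genotype and a p-value below 0.05. An RPKM per gene, the authors' mean of the higher group, was deposited too and was used only for lengths and library totals. Their fold changes and p-values were not used, and 0 columns holding per-sample values stayed out.

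No count model was fitted, although the counts are whole numbers once the digit separators are removed. A test on the log scale had been planned because of the written form of the counts. Library totals were recovered by least squares from the RPKM, the GENCODE M21 exon lengths and the counts. Only genes with an RPKM above 2 and means that differed by more than a small margin between the genotypes were tried. Of 168 tried genes higher in WT, 82 (48.8%) lay within 1% of the fit, and 64 of 168 (38.1%) of those higher in Slc6a4-/-. Counts were divided by factors proportional to the totals. Genotypes were compared by limma 3.58.1 (lmFit, eBayes with trend, R 4.3.3) on log2(scaled count + 1), with Benjamini-Hochberg adjustment over 701 genes and a threshold of 0.05, and the script was tested on simulated data. Since these genes had been selected on the same pools, the adjusted p-values are not false discovery rates over all genes measured. Ratios and sums were tested by exact two-sided permutation (scipy 1.17.1). All 701 identifiers were found in GENCODE M21 with equal chromosome names. Samples were grouped by their labels. The alternatives were other scalings, voom weights, no trend, a pseudocount of 10, a filter at a mean of 100 scaled counts, a replicate block and leaving out each sample.

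The 2 opsins, the gene lists and the tests were chosen with earlier results of these data known. The genes named are the opsins, Slc6a4, every listed gene in the table, the 3 genes most like each opsin, those in the same or exact reverse order as Opn1sw, and neighbours within 1 megabase. The neighbours were added after the values were seen, as were the counts per read of Pde6c or Vax2, the summed opsins and the orders of samples.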

Additional observations from a re-analysis of the deposited data

How the results depend on the processing

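The log2 difference of Opn1sw stayed negative under all 14 alternatives and that of Opn1mw positive under all 14. Opn1sw passed an adjusted p of 0.05 (limma) under 1 of the 14, without WT pool 1, and its adjusted p ran from 0.042 to 0.21. Leaving out 1 sample at a time gave log2 differences from -1.58 (without WT pool 1) to -0.79 (without WT pool 2). Opn1mw passed under 1 of the 14, equal Pde6c counts (log2 difference 0.59), its adjusted p ran from 0.0249 to 0.249, and leaving out 1 sample gave 0.24 to 0.50. The log2 opsin ratio difference lay between -2.06 and -1.05, negative under all 8 of its alternatives, and none of its tests could pass with 3 samples or fewer per group. The number of genes called, 9 (6 higher and 3 lower in Slc6a4-/-), was 160 (152 higher) without scaling, 277 (263 higher) with equal Pde6c counts, 45 (31 higher) without trend and 4 (1 higher) with the replicate block. Leaving out 1 sample gave 5 to 160 calls, with 160 without WT pool 1, 5 without WT pool 2, 5 without Slc6a4-/- pool 2 and 17 without Slc6a4-/- pool 3. Genes without overlap numbered 424 of 701. They numbered 376 without scaling, 443 with medians of ratios and 399 with equal Pde6c counts. Among the 514 genes with a mean of at least 100 scaled counts, 296 did not overlap. Leaving out 1 sample gave 451 to 592, and could only keep or raise the number, since fewer values were compared. The cause of the shifts in the number of genes called, and of those between scalings, was not tested.

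The samples share replicate numbers but nothing says that the numbers pair them. Deviations from the group means of samples with the same number correlated at 0.43, -0.18 and 0.21 over 514 genes. WT pools 1 and 3 correlated best with the mutant pool of their own number, whereas WT pool 2 did not. Whether the numbers mark a shared batch was not tested. With the replicate block the log2 differences were -1.13 for Opn1sw (limma, adjusted p = 0.0828) and 0.39 for Opn1mw (limma, adjusted p = 0.121). The paired opsin ratio gave -1.52 (exact sign-flip permutation test, p = 0.25, the smallest it can give with so few pairs).

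The counts limit the opsins little, as each had over 2000 reads in every sample. The limits are 3 pools per genotype, the selection of the table on these samples, and totals of each library that were recovered rather than given.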
